A study of Mus musculus with 15 samples.

Results

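The signature cytokine genes of type 2 immunity, Il4, Il5, Il9, Il13 and Csf2, were followed across 15 microarrays of group 2 innate lymphoid cells (ILC2s) from mouse lung. A gene was taken from the features annotated with its symbol alone, and where a gene had several, the brightest on average was taken. The 5 genes had 6 features, since Csf2 had an additional one, among 22180 genes with such a feature. All 5 were among the 16257 genes that passed a filter on dim features and entered the test. Each array measured 1 biological replicate, as the labels call it, and 5 groups held 3 arrays each. Naive adult females and naive adult males were 8 weeks old. Effector adult females and effector adult males received IL-33, an alarm cytokine released by damaged epithelium, into the nose on 3 days in a row, and their cells were taken 1 day after the last dose. Neonates were 10 days old and naive. The age of the effector adults and the sex of each neonatal array are unlabelled, and no group is labelled as dosed without IL-33. Strain, mice per array and sorting markers are likewise not given in the sources. Where separate animals are not stated, p-values measure only the spread between these arrays.

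ILC2s are lymphocytes that live in tissues, lack rearranged antigen receptors and respond to epithelial cytokines such as IL-33. They are known for rapid release of IL-5, which matures and recruits eosinophils, and IL-13, which drives mucus production and airway reactivity. Csf2 encodes GM-CSF, a growth factor of macrophages and granulocytes. IL-4 promotes IgE switching and type 2 helper T cells, and IL-9 supports mast cells and the ILC2s themselves. In the mouse Il4, Il13 and Il5 lie close together on chromosome 11 with the DNA repair gene Rad50 between Il13 and Il5, Csf2 lies further along the same chromosome, and Il9 lies on chromosome 13. GATA3, a transcription factor that ILC2s need, acts on the Il5 and Il13 genes.

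Promoter sequences are shown for the 4 chromosome 11 genes, because all 4 were called higher in neonates than in naive adults. They are the 250 bases before the RefSeq start, in assembly GRCm38.p6, written 5′ to 3′ on the strand of the gene. Capitals mark the letters of 3 motifs on either strand: GATA with A or T before it and A or G after it, the NFAT core (GGAAA followed by A or C) and AP-1 (TGANTCA with C or G as N).
Il13 (chr11:53634703-53634952, minus strand): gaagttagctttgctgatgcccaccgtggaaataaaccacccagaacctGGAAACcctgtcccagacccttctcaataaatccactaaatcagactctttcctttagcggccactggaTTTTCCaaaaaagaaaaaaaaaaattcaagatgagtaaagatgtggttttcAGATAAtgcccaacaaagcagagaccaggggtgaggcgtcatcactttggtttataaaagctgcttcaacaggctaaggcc
Il5 (chr11:53720544-53720793, plus strand): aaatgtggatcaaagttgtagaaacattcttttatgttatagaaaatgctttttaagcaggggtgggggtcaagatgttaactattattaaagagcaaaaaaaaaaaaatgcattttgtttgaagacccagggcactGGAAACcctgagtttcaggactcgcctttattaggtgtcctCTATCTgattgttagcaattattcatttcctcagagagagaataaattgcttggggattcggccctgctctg
Il4 (chr11:53618666-53618915, minus strand): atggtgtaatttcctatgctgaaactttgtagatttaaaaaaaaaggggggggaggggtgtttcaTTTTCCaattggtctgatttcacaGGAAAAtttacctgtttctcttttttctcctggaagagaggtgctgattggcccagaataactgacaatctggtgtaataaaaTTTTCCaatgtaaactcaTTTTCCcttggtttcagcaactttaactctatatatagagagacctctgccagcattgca
Csf2 (chr11:54249900-54250149, minus strand): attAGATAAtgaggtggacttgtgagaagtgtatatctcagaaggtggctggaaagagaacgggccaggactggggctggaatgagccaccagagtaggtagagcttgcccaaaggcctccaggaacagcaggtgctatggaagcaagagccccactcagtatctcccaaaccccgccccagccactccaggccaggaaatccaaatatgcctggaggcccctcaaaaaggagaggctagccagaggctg

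In these windows a GATA match lay at positions -81 to -76 from the start of Il13 and at -72 to -67 from that of Il5, where it reads on the opposite strand. The Csf2 match lay at -247 to -242. The Il4 window shown held 4 NFAT core matches and no GATA match, and an internal Il4 start that RefSeq also lists had a GATA match at -80 to -75. A GATA match stood in 26.5% of the 32851 RefSeq promoter windows of this length, an NFAT core match in 33.4% and an AP-1 match in 4.46%. None of the 4 windows shown held the AP-1 letters, whereas the Il9 window, not shown, held 1 AP-1 and 2 NFAT core matches. The matches are letters in a window, and binding was not measured.

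Values are log2 expression levels as deposited, so a difference of 1 is a doubling of the array signal. The median level of an array lay between 4.44 and 4.64. All 12 ILC2 markers with a feature of their own, among them Gata3, Klrg1, Icos and Thy1, lay above background in each of the 5 groups. Background is taken here as the upper quartile of 1420 features of olfactory, vomeronasal and trace amine receptor genes, which serve sensory neurons. It was 4.07 in naive adults, 3.36 in effector adults and 3.72 in neonates. Markers of other cells passed it as well. In neonates 11 of 11 T cell, 12 of 16 mast cell and basophil and 15 of 16 epithelial, endothelial and fibroblast markers did. The counts for these lists were 10, 10 and 14 in naive adults and 11, 13 and 15 in effector adults. Lying above background therefore does not tell ILC2s from other cells. Il4, Il5, Il13 and Csf2 exceeded background on all 15 arrays. Naive male arrays 1 and 2 and neonatal array 2 had the lowest mean correlation with the other arrays (r = 0.895, 0.889 and 0.898, against 0.910 to 0.938 for the rest), and values without them are given where a call ends or begins.

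Between effector and naive adults Il13, Il5 and Il4 rose at a limma adjusted p under 0.05 and Csf2 did not pass. Il9 was called higher too, but it had passed the dim filter through effector and neonatal arrays only, so its call is set apart and is no support for a shared rise. Over all genes 34.6% were called in this comparison and 23.7% were called higher. With arrays set to a common median, called centring here, the median over all genes was 0.17 and higher calls made up 83.0% of all calls, against 68.5% as deposited. Csf2 did not pass as deposited and passed after centring (0.41, limma adjusted p = 0.021).

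Il13 had the largest difference of the 5 genes between effector and naive adults. Its level was 7.72, 7.57 and 7.61 on the naive female arrays and 7.11, 7.38 and 7.64 on the naive male arrays. On effector arrays it was 10.94, 10.72 and 11.20 in females and 10.05, 10.07 and 10.44 in males. The lowest effector array thus lay above the highest naive array, and female and male arrays overlapped among naive but not among effector arrays. The difference of effector from naive adults was 3.07 ± 0.14 (SE, n = 6 arrays each), an 8.38-fold change in signal with a 95% interval of 6.81 to 10.3 (limma adjusted p = 4.88e-10). Only 0.455% of tested genes had a larger rise. The interval was 2.90 to 3.75 on the log2 scale in females and 2.39 to 3.24 in males.

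Neonatal Il13 stood between naive and effector adult levels. It was 10.00, 9.53 and 10.07 on the 3 neonatal arrays, all above the highest naive adult array. Neonates exceeded naive adults by 2.36 ± 0.17 (SE, n = 3 and 6), or 5.14-fold (limma adjusted p = 7.04e-07), and 0.197% of tested genes had a larger rise. This comparison and that of effector with naive adults share the naive arrays. Against effector adults neonatal Il13 was lower, at -0.70 ± 0.17 (limma adjusted p = 0.0101), with neonatal array 3 inside the range of the effector males. Without neonatal array 2 this difference was -0.54 and no longer called (limma adjusted p = 0.0664). Against effector males alone it was -0.32 and was not called (limma adjusted p = 0.302).

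Il5 followed the same order of adult groups with a smaller amplitude. Its level was 7.55, 7.16 and 7.42 in naive females, 6.60, 6.06 and 7.20 in naive males, 8.87, 8.78 and 9.09 in effector females and 7.91, 7.79 and 8.32 in effector males. All 6 effector arrays lay above all 6 naive arrays. The difference was 1.46 ± 0.21 (SE, n = 6 each), or 2.76-fold with a 95% interval of 2.01 to 3.78 (limma adjusted p = 9.79e-05). The rise passed in females (1.54 ± 0.30) and in males (1.39 ± 0.30). Without the 3 least correlated arrays, among them naive male arrays 1 and 2, the male difference was 0.81 and was not called (limma adjusted p = 0.0989).

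In neonates Il5 reached 9.60, 8.35 and 8.89, the widest spread of any group for this gene (SD 0.627). Neonates exceeded naive adults by 1.95 ± 0.26 (SE, n = 3 and 6), or 3.86-fold (limma adjusted p = 2.59e-04), and only 0.418% of tested genes rose more. Neonatal and effector arrays overlapped, and their difference of 0.49 ± 0.26 did not pass (limma adjusted p = 0.208), with a 95% interval of -0.07 to 1.05. Without the 3 least correlated arrays that difference was 0.78 and was called (limma adjusted p = 0.0274), and it was called against effector males alone (0.94, limma adjusted p = 0.0484). Leaving out neonatal array 1 brought it to 0.16. The effector female mean lay 0.03 lower than the neonatal mean with overlapping arrays, and all 3 neonatal arrays lay above the highest effector male array.

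**Figure D1:**
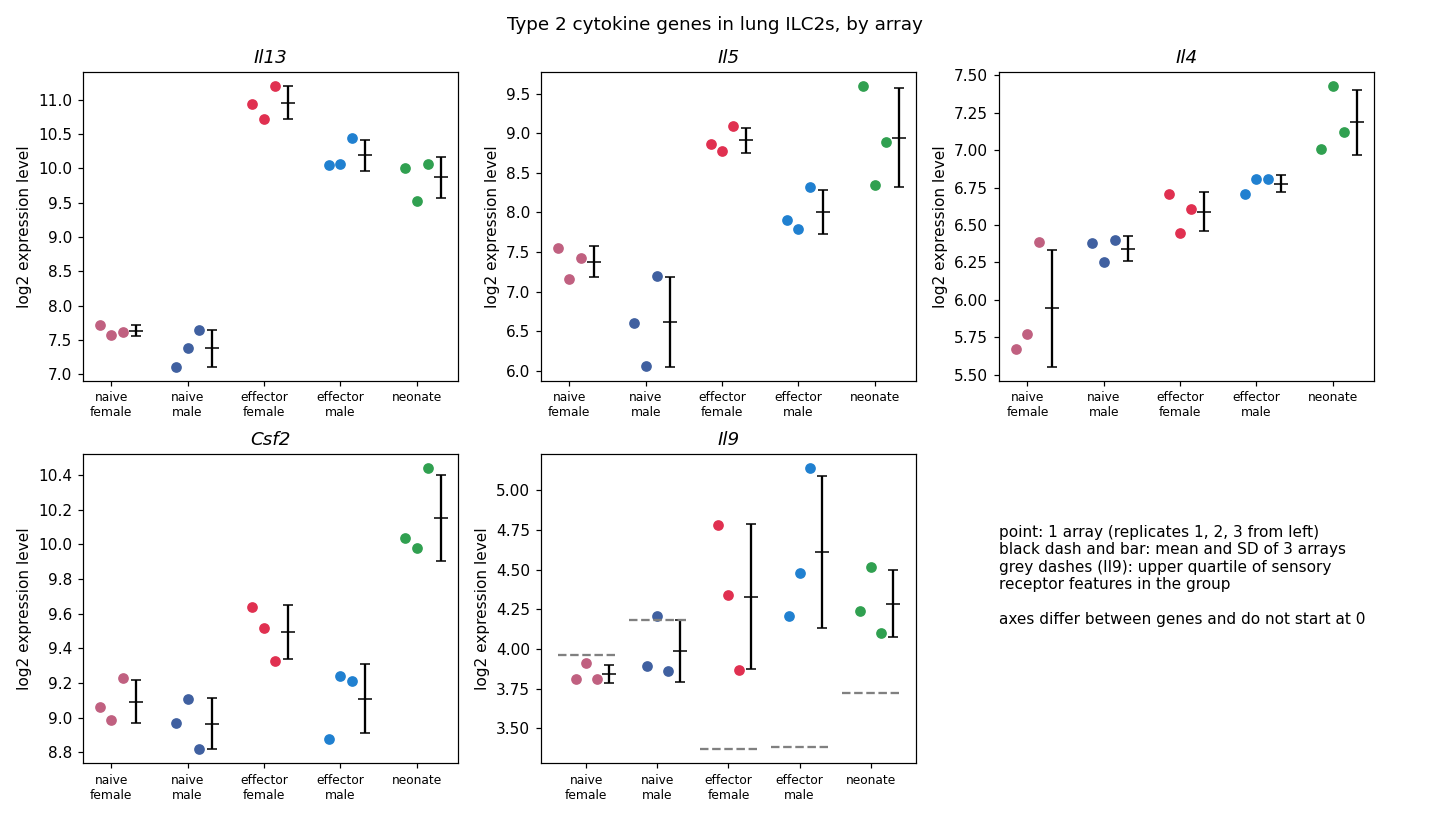
Log2 expression level (y axis, a separate scale for each gene that does not start at 0) of the 5 type 2 cytokine genes in naive female, naive male, effector female, effector male and neonatal ILC2s (x axis). Points are arrays, black bars the mean and SD of 3 arrays, and grey dashes in the Il9 panel the background of each group. Il13 stands highest in effector females (10.96), Il4 and Csf2 stand highest in neonates (7.19 and 10.15), and the naive Il9 means (3.85 and 3.99) lie below the dashes.

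Effector females and effector males differed in the same direction for Il13, Il5 and Csf2. The difference was 0.77 ± 0.20 for Il13, 0.91 ± 0.30 for Il5 and 0.39 ± 0.17 for Csf2 (SE, n = 3 each), and for each of these 3 genes every female array lay above every male array. Over all genes 6.02% had effector female arrays above the males without overlap. No member was called (limma adjusted p = 1 for all 5), although 3 of 5 had an unadjusted p under 0.05. Of all tested genes 0.0308% were called in this comparison and 332 had an unadjusted p under 0.05. For Il5 only 0.172% of tested genes had a larger female excess and for Il13 0.375%. Il4 (-0.19 ± 0.19) and Il9 (-0.28 ± 0.25) overlapped between the sexes and had lower means in females.

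Among naive adults 0 of 5 members were called between the sexes, and 0.209% of all genes were. Il5 differed by 0.76 ± 0.30 (unadjusted p = 0.0241, limma adjusted p = 0.419), with naive male array 3 inside the female range. Il13 differed by 0.26 ± 0.20 and Csf2 by 0.13 ± 0.17. Il4 ran the other way at -0.40 ± 0.19, with naive female array 3 inside the male range.

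The difference of effector from naive cells, called the response here, was compared between the sexes as the female response minus the male response. Without a group labelled as dosed without IL-33, the effect of IL-33 cannot be told apart from that of dosing. No member passed, none had an unadjusted p under 0.05, and 0% of all genes were called (866 had an unadjusted p under 0.05). The difference of responses was 0.51 for Il13 with a 95% interval of -0.09 to 1.11, and 0.15 for Il5 with an interval of -0.76 to 1.06. For Csf2 the interval was -0.26 to 0.79. In females 3 members were called higher in effector cells, Il13, Il5 and Il4, where 10.2% of all genes were called higher and 14.0% in either direction. In males 2 members were, Il13 and Il5, where 18.7% were called higher and 24.9% in either direction. Higher calls made up 73.1% of calls in females and 74.9% in males, against 83.9% and 86.8% after centring.

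**Figure D2:**
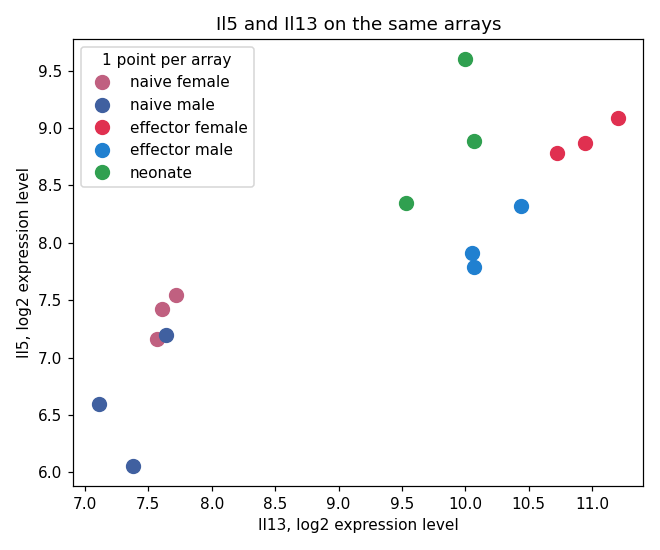
Il5 level (y axis) against Il13 level (x axis), both log2, with 1 point per array and a colour per group; neither axis starts at 0. The naive arrays sit at the lower left with Il13 below 7.73, effector females at the upper right, effector males below them in both genes, and neonates at Il13 levels of 9.53 to 10.07 with Il5 up to 9.60.

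Il4 was highest in neonates. Its level was 5.67, 5.77 and 6.39 in naive females, 6.38, 6.25 and 6.40 in naive males, 6.71, 6.45 and 6.61 in effector females and 6.71, 6.81 and 6.81 in effector males. On the neonatal arrays it was 7.01, 7.43 and 7.12, above every adult array. Neonates exceeded naive adults by 1.04 ± 0.16 (SE, n = 3 and 6), or 2.06-fold (limma adjusted p = 9.66e-04). They exceeded effector adults by 0.50 ± 0.16 (limma adjusted p = 0.0413), a call close to the threshold. It ended without any one of 8 arrays, namely the 6 effector arrays (0.47 to 0.53) and neonatal arrays 2 (0.38) and 3 (0.54). It also ended after centring (0.40), under array weights (0.47), under the prior with trend and robust fitting (0.50) and under a replicate block (0.50).

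Il4 also rose modestly in effector adults. The difference from naive adults was 0.54 ± 0.13 (SE, n = 6 each), or 1.45-fold (limma adjusted p = 0.00586), with no overlap between the 6 effector and 6 naive arrays. Over all genes 15.2% had effector arrays higher without overlap. The rise was smaller than that of 19.8% of tested genes. It was not called after a further quantile normalization (0.39, limma adjusted p = 0.0534). In females alone the rise was 0.65 ± 0.19 and called (limma adjusted p = 0.0328), but without naive female array 1 or 2 or any 1 effector female array it lay between 0.51 and 0.72 and was not. In males alone 0.43 ± 0.19 did not pass (limma adjusted p = 0.11).

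Csf2 was raised in neonates and was not called in effector adults. Its level was 9.06, 8.99 and 9.23 in naive females, 8.97, 9.11 and 8.82 in naive males, 9.64, 9.52 and 9.33 in effector females and 8.88, 9.24 and 9.21 in effector males. Neonatal arrays read 10.04, 9.98 and 10.44, all above every adult array. Of all genes 7.92% lay without overlap above effector adults and 6.88% above naive adults. The share above both was not counted. Neonates exceeded naive adults by 1.12 ± 0.15 (SE, n = 3 and 6), or 2.18-fold (limma adjusted p = 2.47e-04), and effector adults by 0.85 ± 0.15, or 1.80-fold (limma adjusted p = 0.00132). Both calls held without any single array, with differences of 0.98 to 1.21 and 0.71 to 0.93.

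Effector and naive adults differed in Csf2 by 0.27 ± 0.12, which did not pass (limma adjusted p = 0.097), with a 95% interval of 0.01 to 0.54. Effector male arrays overlapped the naive arrays, while effector female arrays lay above those of both sexes. Against naive females alone, a looser condition, 22.6% of genes had effector female arrays higher without overlap. The additional Csf2 feature was dim, with levels of 3.62 to 4.76 on naive adult, 4.02 to 4.57 on effector and 4.06 to 5.63 on neonatal arrays, and its groups overlapped. Its position in the gene is not given in the sources used here, and it was not used in the test.

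Il9 was dim. It lay above background on 1 of 6 naive arrays, on all 6 effector and on all 3 neonatal arrays, whose background was lower than that of naive adults. Its level was 3.81, 3.91 and 3.81 in naive females, 3.89, 4.21 and 3.86 in naive males, 4.78, 4.34 and 3.87 in effector females, 4.21, 4.48 and 5.14 in effector males and 4.24, 4.52 and 4.10 in neonates. It passed the dim filter through 5 effector and 2 neonatal arrays and no naive array, so a higher effector level was favoured by the filter. The difference of effector from naive adults was 0.55 ± 0.18 (SE, n = 6 each; limma adjusted p = 0.0243), with overlapping arrays. That call ended without effector female array 1 (0.44, limma adjusted p = 0.0674), without effector male array 3 (0.42, limma adjusted p = 0.0675) and without the 3 least correlated arrays (0.62, limma adjusted p = 0.0559). The naive means and 5 of 6 naive arrays lay in the background range, so this is a difference in array signal and the size of the transcript's change is not known. Neonatal Il9 differed from naive adults by 0.37 ± 0.22 and did not pass (limma adjusted p = 0.31).

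Neonates therefore had 4 of 5 members higher than naive adults (Il13, Il5, Csf2 and Il4), where 6.04% of all genes were called higher and 10.2% in either direction. Their arrays did not overlap with naive adults for these 4 members, as held in the higher direction for 6.88% of genes. Against effector adults 2 members were higher (Csf2 and Il4), where 5.93% of genes were, 1 was lower (Il13), where 14.7% were, and 2 did not pass (Il5 and Il9). Calls in either direction made up 20.6% of genes. After centring 16.4% of all calls in this comparison were higher, against 28.8% as deposited and 37.3% after a further quantile normalization. The order of group means was thus not shared. Il13 ran from naive males and naive females, which overlapped, to neonates and effector males, which overlapped, to effector females, which stood apart. Il5 ran from the naive groups to effector males and then to effector females and neonates, which overlapped. For Il4 and Csf2 neonates stood apart at the top.

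**Figure D3:**
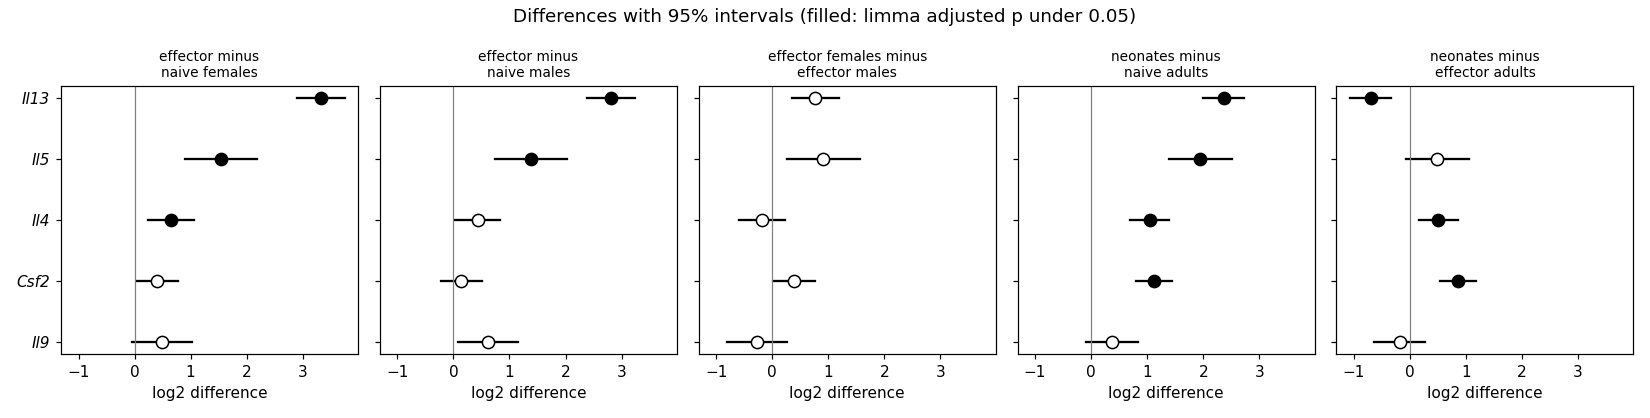
Log2 difference (x axis) of Il13, Il5, Il4, Csf2 and Il9 (y axis) in 5 comparisons, with 95% intervals of the fit to all 15 arrays; filled points passed a limma adjusted p under 0.05. Il13 and Il5 are filled in both sexes, the sex contrast of effector cells holds no filled point, and Csf2 is filled only in the neonatal comparisons.

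The genes most like each member were found by the root mean square (RMS) difference between profiles over the 15 arrays, each centred on its own mean. For Il13, whose own profile had an RMS of 1.45, they were the spindle gene Tpx2 (0.401), the MAP kinase phosphatase gene Dusp4 (0.408) and Irf4 (0.44), a transcription factor of activated lymphocytes. For Il5, with an RMS of 0.959, they were the stress-response gene Ndrg1 (0.35), the hypoxia-inducible factor gene Hif1a (0.387) and the kinase gene Map3k8 (0.41). Hif1a was higher in effector than naive adults by 1.36 and in neonates by 1.37. For Il4, with an RMS of 0.452, they were B3galnt1 (0.238), Slc16a6 (0.247) and Ubtd2 (0.262), and for Il9, with an RMS of 0.377, Ccdc14 (0.24), Ranbp17 (0.252) and Nop56 (0.253). These are distances in this set of arrays, which share 5 group means.

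The members were not each other's nearest profiles. Il5 stood at rank 205 of 16256 genes by closeness to Il13, with an RMS difference of 0.793, and Il13 at rank 1581 by closeness to Il5. Il4 and Csf2 had an RMS difference of 0.355, and Csf2 stood at rank 184 by closeness to Il4. The RMS differences of these pairs are not comparable in size, since the profile of Il4 itself had an RMS of 0.452 and that of Il13 1.45.

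Neighbours of the cytokine genes on chromosome 11 were counted from a list of 17, of which 15 were tested. Between effector and naive adults 5 rose and 1 fell, where 23.7% of all genes were called higher and 10.9% lower. The neighbours' median was -0.06 against 0.03 over all genes. Kif3a, a kinesin motor gene beside Il4, rose by 1.19 ± 0.18 (limma adjusted p = 1.19e-04). Rad50, whose gene body holds the locus control region of the type 2 cytokine genes, rose by 0.80 ± 0.17, and Uqcrq, a respiratory chain gene, by 0.81 ± 0.14. In neonates against naive adults the neighbours' median was 0.20 against 0.02 over all genes. There 1 neighbour was called higher and 1 lower, where 6.04% of all genes were called higher and 4.12% lower. The higher one was Il3, the cytokine gene next to Csf2, at 1.11 ± 0.20 (limma adjusted p = 0.00274), and the lower one Zcchc10 at -0.79 ± 0.17.

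Il3 read 4.88, 5.13 and 5.73 in neonates, against 3.71 to 4.36 in naive and 3.59 to 4.69 in effector adults. Its naive adult mean of 4.14 was close to the background of 4.07, so the size of the transcript's change is not known. All 3 neonatal Il3 arrays lay above every adult array, as for the much brighter Csf2. Rad50 and Kif3a, at 0.20 ± 0.21 and 0.49 ± 0.22, did not pass in neonates.

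**Figure D4:**
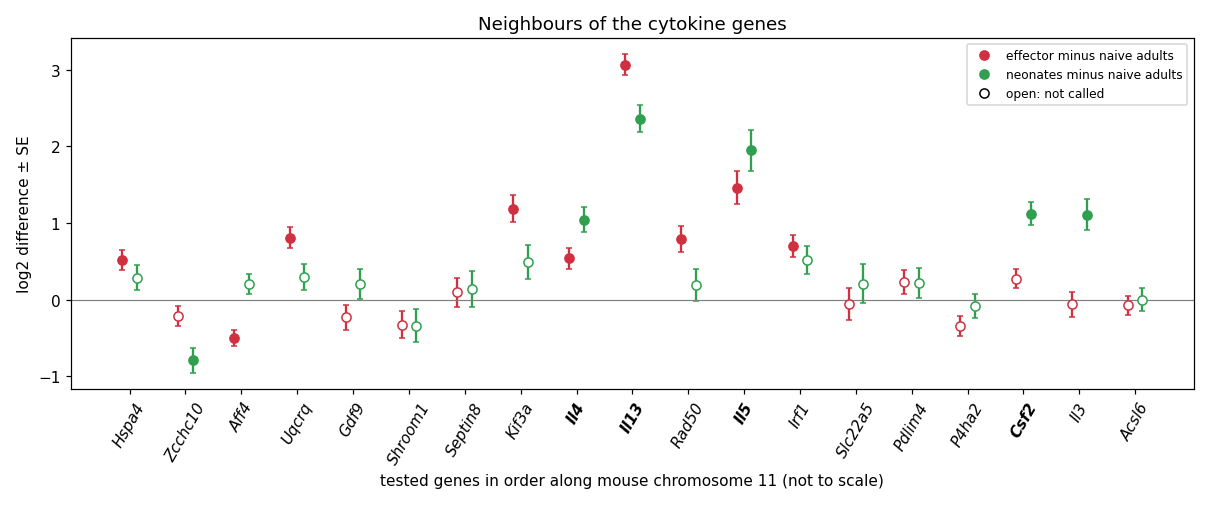
Log2 difference ± SE (y axis) of tested genes in their order along mouse chromosome 11 (x axis, not to scale), for effector minus naive adults in red and neonates minus naive adults in green; filled points passed the limma test. Il13 and Il5 have the largest values in both comparisons, and Csf2 and Il3 are filled in green only.

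The gene lists that follow are read against all tested genes, of which 23.7% were called higher and 10.9% lower in effector adults and 6.04% higher and 4.12% lower in neonates, each against naive adults, with medians of 0.03 and 0.02. The list medians in effector adults and in neonates were -0.18 and -0.12 for receptors of the cytokines, 0.54 and 0.49 for JAK and STAT genes and -0.15 and 0.21 for their feedback genes. They were -0.22 and -0.10 for receptors that drive cytokine release, 0.01 and 0.08 for those that restrain it, 0.23 and 0.25 for transcription factors, -0.13 and 0.23 for mRNA stability genes and 0.14 and 0.34 for other secreted products. Of 10 listed receptor genes for these cytokines 6 were tested, and 1 rose and 1 fell in effector adults. The IL-3 receptor gene Il3ra rose by 0.85 ± 0.17 and Il9r, through which ILC2s sense IL-9, fell by 0.74 on the log2 scale (SE 0.169, limma adjusted p = 0.00327), from a mean of 9.48 to 8.74. Il4ra, the shared receptor chain for IL-4 and IL-13, differed by 0.26 ± 0.23 in effector adults and 0.86 ± 0.28 in neonates, and neither passed (limma adjusted p = 0.405 and 0.0629). Csf2rb, the shared beta chain for GM-CSF, IL-3 and IL-5, differed by -0.24 ± 0.22 and -0.30 ± 0.27 in the same comparisons. No receptor was called in neonates against naive adults, where 10.2% of all genes were, and Il5ra did not pass the dim filter.

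Downstream of these receptors 5 of 7 JAK and STAT genes rose in effector adults and none fell. Stat5b, a mediator of IL-2, IL-7 and GM-CSF signals, rose by 1.25 ± 0.21, Stat5a by 0.84 ± 0.18 and Stat3 by 0.60 ± 0.12. After a further quantile normalization 3 rose and 1 fell. In neonates 2 of 7 were higher than in naive adults, Stat3 at 0.81 ± 0.15 and Jak2 at 0.80 ± 0.18. Of 8 SOCS and CISH feedback genes 2 rose and 1 fell in effector adults. Socs3 rose by 1.43 ± 0.17, Socs6 rose by 0.41 ± 0.15 and Cish was lower at -0.50 ± 0.12. In neonates only Socs1, an inhibitor of JAK kinases, was called, at -0.80 ± 0.16.

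Among receptors that drive type 2 cytokine release 5 of 17 tested genes rose and 5 fell in effector adults, and 3 were higher and 3 lower in neonates than in naive adults. After a further quantile normalization 4 rose and 7 fell in effector adults. OX40, a costimulatory receptor encoded by Tnfrsf4, rose in both, by 2.76 ± 0.26 and 2.14 ± 0.32. Il18r1 rose by 1.95 ± 0.21 in effector adults. Nmur1, the receptor for neuromedin U, was lower in effector adults by -2.36 ± 0.22, and the VIP receptor gene Vipr2 was lower in neonates by -1.74 ± 0.18. Il2rb was higher in neonates by 1.46 ± 0.26. Il7r was lower in both, at -1.11 ± 0.14 and -0.66 ± 0.17, and Il17rb, the IL-25 receptor gene, did not pass in either (-0.22 ± 0.16 and -0.46 ± 0.20). The IL-33 receptor gene Il1rl1 had no feature with its symbol alone and was not tested.

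Receptors that restrain ILC2 cytokine release rose for 5 of 19 tested genes and fell for 2 in effector adults, or for 4 after a further quantile normalization. Ctla4 rose by 4.11 ± 0.19, Tigit by 3.48 ± 0.24 and Havcr2 by 1.88 ± 0.19. In neonates 4 were higher than in naive adults and none lower, with Ctla4 at 1.80 ± 0.23, Havcr2 at 1.57 ± 0.23 and the prostaglandin receptor gene Ptger2 at 0.90 ± 0.21. The Tigit and Havcr2 means in naive cells (3.36 and 3.33) lay in the background range.

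Of 34 tested transcription factors of type 2 cytokine genes 12 rose and 7 fell in effector adults, and 8 were higher and 2 lower in neonates than in naive adults. The effector counts were 18 and 6 after centring and 9 and 8 after a further quantile normalization, and the neonatal counts 9 and 0 after centring. Gata3 lay between 8.48 and 9.15 on all 15 arrays and did not pass in effector adults (-0.11 ± 0.12) or neonates (-0.08 ± 0.15). Irf4 rose by 3.69 ± 0.24 in effector adults and was higher in neonates by 2.66 ± 0.29. Its neonatal levels were 8.70, 7.32 and 8.67, all above the highest naive adult array at 6.34. Batf, an AP-1 factor that partners with IRF4, rose by 2.00 ± 0.14 in effector adults and differed by -0.07 ± 0.17 in neonates.

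Batf was lower in neonates than in effector adults by -2.06 ± 0.17 (limma adjusted p = 3.31e-06), and so was the related Batf3, which had risen by 2.17 ± 0.16 in effector adults. The NF-kB subunit gene Rel was higher in neonates than in naive adults by 1.67 ± 0.25 and Nfil3, a factor needed for ILC development, by 1.12 ± 0.18. Rel read 10.86, 10.50 and 10.00 in neonates, against 8.33 to 9.51 in naive and 9.23 to 9.61 in effector adults.

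Regulators of cytokine mRNA stability fell for 4 of 13 tested genes and rose for 4 in effector adults, or for 2 after a further quantile normalization. Zfp36, which binds AU-rich elements and promotes decay of cytokine mRNAs, read 11.08 to 11.22 on naive adult arrays, 9.23 to 9.96 on effector arrays and 10.43, 11.37 and 11.36 on neonatal arrays. It was lower in effector adults by -1.43 ± 0.17 (limma adjusted p = 1.31e-05) and differed by -0.09 ± 0.21 in neonates (limma adjusted p = 0.838). Zfp36l1 (-1.34 ± 0.13) and Btg2 (-1.77 ± 0.14) were also lower in effector adults. In neonates 1 member was higher, Elavl1 (0.84 ± 0.25), which was not called after a further quantile normalization (limma adjusted p = 0.0691), and 1 lower, Zfp36l2 (-0.94 ± 0.26).

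Of 26 tested other secreted products of ILC2s 7 rose and 5 fell in effector adults (10 and 5 after centring), and 6 were higher and none lower in neonates than in naive adults. Cxcl3, a neutrophil chemokine gene, was raised in both, by 3.09 ± 0.20 and 3.12 ± 0.25. Il6 rose by 2.75 ± 0.22 in effector adults and Il2, the T cell growth factor gene, was lower by -3.15 ± 0.27, to a mean of 3.17 that lay in the background range. Neither was called in neonates (0.37 ± 0.27 and -0.12 ± 0.33). Vegfa, the vascular growth factor gene, was higher in neonates by 1.73 ± 0.26, and the enkephalin precursor gene Penk by 1.20 ± 0.29, from a naive mean of 3.65 that lay in the background range.

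Some markers of other cells that make these cytokines were higher in the neonatal group, while most of those tested were not called. Basophils and mast cells can express Il4 and Il13. Cpa3, the mast cell carboxypeptidase gene, read 10.41, 10.40 and 10.49 in neonates, against 6.71 to 9.05 in naive and 6.72 to 7.51 in effector adults. Naive females read 8.81 to 9.05 and naive males 6.71 to 7.46. Cpa3 was higher in neonates than in naive adults by 2.43 ± 0.20 (limma adjusted p = 3.03e-06). Mcpt8, a basophil protease gene, read 7.17, 7.68 and 4.87 in neonates, against 4.01 to 5.56 in naive and 4.65 to 7.08 in effector adults, and Tpsb2, a mast cell tryptase gene, 5.48, 5.54 and 4.64, against 3.97 to 4.49 and 4.05 to 4.52. On neonatal array 3 Mcpt8 lay inside the naive range, while Cpa3 was at its highest of all 15 arrays and Tpsb2 lay above every adult array. In the whole list of 16 markers 3 of 11 tested genes were higher in neonates and none lower. Ms4a2 of that list averaged 4.15 in neonates and 4.22 in naive adults.

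The summed log2 level of those 16 markers was 75.2 to 86.2 on neonatal, 71.9 to 75.9 on naive and 68.6 to 79.1 on effector arrays. Sums of log2 levels, here and below, also carry the background. That was 4.07 in naive adults, 3.36 in effector adults and 3.72 in neonates. A lower sum in effector adults therefore does not show fewer such cells. The group means of the defining receptor gene Fcer1a lay in the background range, with arrays at 2.44 to 3.07 in naive adults, 2.72 to 3.85 in effector adults and 2.47 to 2.98 in neonates, and Kit differed by 0.20 ± 0.15 in neonates and did not pass. In effector adults no marker of the list rose as deposited, 1 did after centring, and 3 fell (Cpa3 at -0.90 ± 0.16, Kit at -0.67 ± 0.13 and Mitf at -0.66 ± 0.16). The Cpa3 mean was 8.91 in naive and 7.24 in effector females, against 7.10 and 6.96 in males, so its fall lay mostly in females. In effector against naive females 1 of the 11 was called higher and 2 lower. Mcpt8 read 4.31, 4.01 and 4.18 in naive females and 6.23, 7.08 and 5.40 in effector females, and 5.56, 5.22 and 5.40 in naive and 4.65, 5.13 and 6.61 in effector males. T cell markers were higher for 2 of 11 tested genes and lower for 1 in neonates against naive adults. Cd3e read 8.10, 6.85 and 7.22 in neonates, against 5.60 to 6.71 in naive and 5.72 to 6.37 in effector adults. The summed level of 11 T cell markers was 62.8 to 66.5 in neonates, 61.8 to 63.8 in naive and 58.1 to 60.8 in effector adults. In neonates against effector adults 4 of 11 T cell and 3 of 11 mast cell and basophil markers were higher and none lower. Of all genes 5.93% were called higher and 14.7% lower there. The part of these markers' cells in the effector and neonatal cytokine levels was not tested. In bulk RNA more cells of a type and more RNA per cell cannot be told apart.

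None of 3 tested eosinophil markers was called in effector or neonatal cells against naive adults. Macrophage and dendritic cell markers rose for 1 and fell for 2 of 9 in effector adults, the 2 falls not being called after centring, and 1 was higher in neonates. Of 14 tested epithelial, endothelial and fibroblast markers none rose as deposited, 1 did after centring, and 2 fell in effector adults, and 1 was higher, the surfactant gene Sftpc at 1.98 ± 0.46, and 1 lower in neonates. In neonates against effector adults 5 of these 14 were higher, or 3 after centring. There 1 of 9 macrophage and dendritic cell markers was higher and none of 3 eosinophil markers was called. No marker of these lists was lower. The summed level of 16 epithelial, endothelial and fibroblast markers was 79.4 to 82.1 on neonatal, 73.7 to 82.1 on naive and 73.1 to 77.3 on effector arrays.

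**Figure D5:**
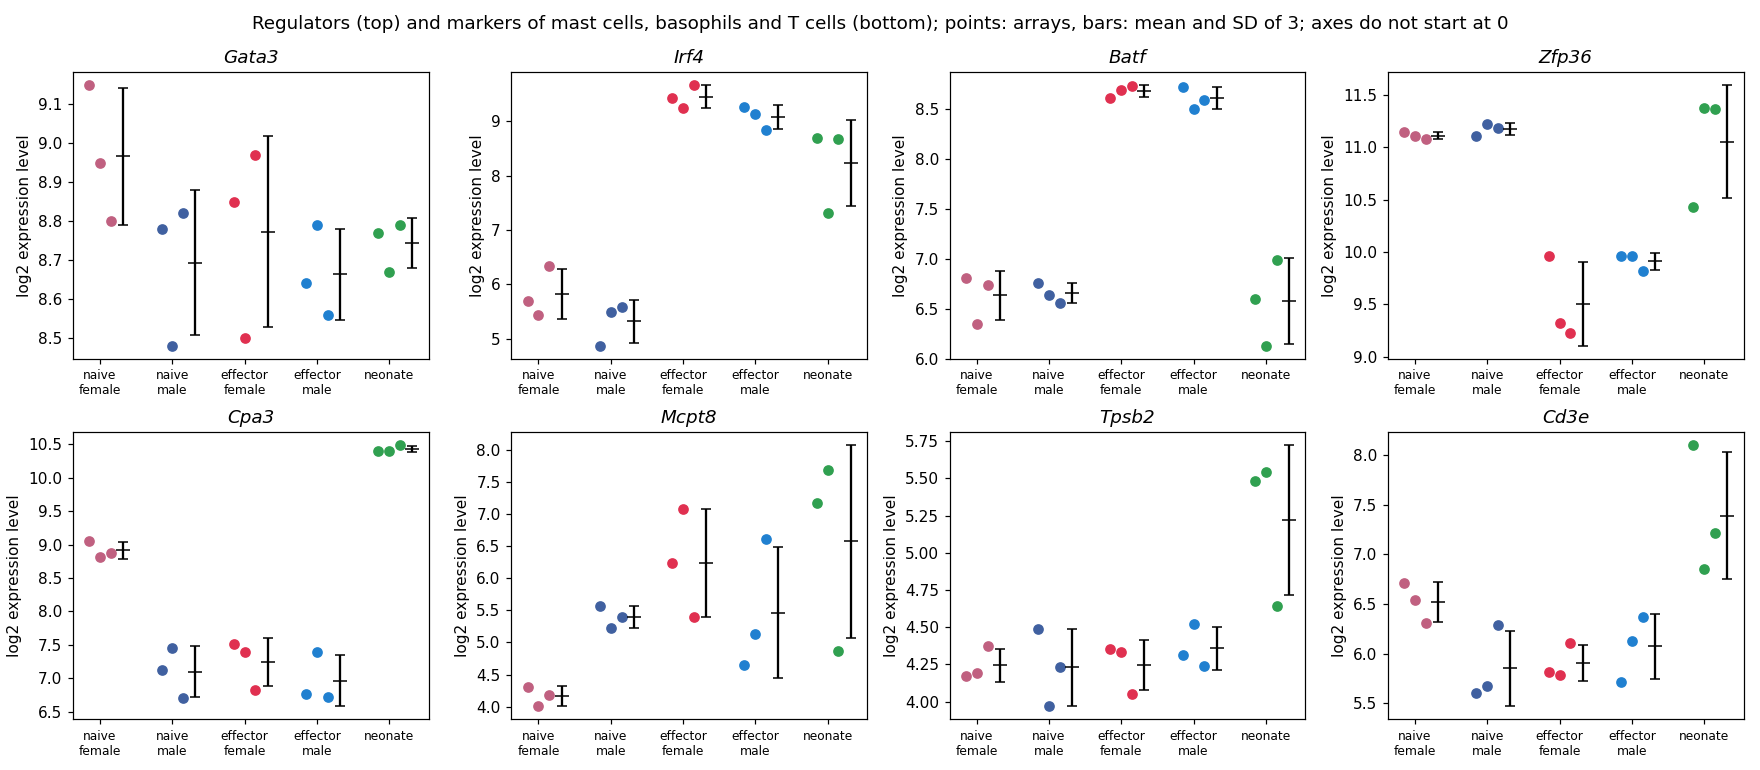
Log2 level by array (y axes, not starting at 0) of the regulators Gata3, Irf4, Batf and Zfp36 and of Cpa3, Mcpt8, Tpsb2 and Cd3e, which mark mast cells, basophils and T cells, in the 5 groups (x axis), with the mean and SD of 3 arrays. Irf4 is high in effector and neonatal cells, Batf is high and Zfp36 low in effector cells, and Cpa3 stands at 10.40 to 10.49 in neonates.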

How the data were processed

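Total RNA of lung ILC2s was hybridised to 15 Affymetrix arrays in 5 groups of 3. The deposited values are log2 expression levels that the authors made with Affymetrix Expression Console and RMA, per the submitters' processing notes. RMA subtracts background and equalises the arrays' distributions, which compresses differences of dim genes. The deposited arrays were not fully equal. Their medians ran from 4.44 to 4.64, and the sensory receptor background was 4.07 in naive and 3.36 in effector adults. No source gives the version used or its annotation. With 3 arrays in a group, their number sets the precision.

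Of 41345 features, 23521 carried exactly 1 gene symbol, 1814 several and 16010 none. For 23328 features with 1 symbol the gene identifier was found in the RefSeq table, with 0 symbols altered. Features had to exceed percentile 40 of the array on 3 or more arrays, and the feature of a gene with the highest mean was used, leaving 16257 genes. A mean per group was estimated from the 15 arrays together (limma 3.58.1, R 4.3.3, with 10 residual and 5.05 prior degrees of freedom) for 8 comparisons, two-sided, with Benjamini-Hochberg adjustment over all genes and calls at an adjusted p under 0.05. Standard errors come from this fit. Alternatives changed the filter, scaling, prior, weights, block, samples fitted and feature choice, and left out each array. The pipeline was tested on simulated data.

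Members, gene lists and alternatives were chosen with earlier results of these data known. Beside the members, the named genes are up to 3 called genes of each list with the largest difference in effector or neonatal cells against naive adults, a fixed set of regulators and receptors, and the 3 genes most like each member called in effector adults. Sequences are from RefSeq, and all 5 members matched. Figures were drawn with matplotlib 3.10.9.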

Additional observations from a re-analysis of the deposited data

How the results depend on the processing

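The rises of Il13 and Il5 in effector over naive adults, and of Il13, Il5, Il4 and Csf2 in neonates over naive adults, kept direction and call under every alternative run. After centring, Csf2 (0.41) was called in effector adults, Il4 (0.59) and Il9 (0.78) in effector males, and Il4 (0.40) no longer in neonates over effector adults. After a further quantile normalization Il4 was not called in effector adults (0.39) or females (0.55), Il9 was called in males (0.78), and Csf2 turned to -0.053 in males. The neonatal excess of Il4 over effector adults was lost with a trended and robust prior (0.50), array weights (0.47) and the replicate block (0.50), which changed no other call of a member. Arrays with the same replicate number in different groups did not deviate together more than others (r = -0.11 to 0.10 over 30 pairs). For pairs with other numbers r was -0.14 to 0.17 over 60 pairs. This cannot exclude that arrays of the same number shared a preparation. The rise of Il4 in females (0.65) was lost when only the groups compared were fitted. Averaging the features of each gene turned the Csf2 difference of responses to -0.022.

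The next 3 alternatives were chosen after seeing the data. Without the 3 least correlated arrays Il13 in naive females against males turned to -0.0065, the calls of Il4 in neonates over effector adults (0.38), Il5 in effector males (0.81) and Il9 in effector adults (0.62) were lost, and Il5 was called in neonates over effector adults (0.78). Against effector females alone the neonatal Il4 difference was 0.60 and not called. Against effector males alone Il4 (0.41) and Il13 (-0.32) were not called and Il5 (0.94) was.

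Leaving out single arrays gave -0.81 to -0.54 for Il13 and 0.38 to 0.59 for Il4 in neonates over effector adults, 0.51 to 0.87 for Il4 in effector females, 0.42 to 0.67 for Il9 in effector adults and 0.36 to 0.82 in males. The difference of responses ranged from -0.14 to 0.43 for Il5 (turned without naive male array 3) and from -0.36 to 0.13 for Il9 (turned without effector female array 3, at 0.10, and effector male array 3).

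Counts of called genes ranged without single arrays from 1358 to 2515 in effector females (2276 with all), 2607 to 4403 in males (4048), 0 to 8 for the difference of responses (0), 16 to 99 between naive sexes (34), 2061 to 3761 in neonates over effector (3346) and 1031 to 1856 over naive adults (1652). Array weights gave 3745 in females, 11 between effector sexes (5 as fitted), 19 between naive sexes, 2068 and 705 in neonates over effector and naive adults, and 1 for the difference of responses, as did the filter at percentile 60, centring, the replicate block and leaving out the 3 least correlated arrays, which gave 2239 in males. Fitting only the groups compared gave 8 between effector sexes, 8 between naive sexes and 676 in neonates over naive adults. Against females alone neonates gave 1942 and 935 calls. The extremes that lay over 1.5 times from the full count came without effector female array 2 in females, effector male array 3 in males, naive female array 3 and naive male array 3 between naive sexes, neonatal array 2 over effector adults and neonatal array 1 over naive adults. The cause of these changes was not tested. After centring or quantile normalization no called list gene turned sign in effector or neonatal cells against naive adults, or in neonates against effector adults. The other comparisons were not checked for this.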
